A study of Mus musculus with 24 samples.

Results

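Esam-high and Esam-low CD11b+ dendritic cells of wild-type mouse spleen were compared gene by gene from the RNA sequencing of sorted cells. Per the labels, the series covers spleen dendritic cells of F1 mice of a C57BL/6 by FVB/N cross, sorted into 5 subsets in each of 2 Flt3 genotypes. The comparison used all 4 wild-type (WT, Flt3 +/+) CD11b+ libraries of the 24 in the series: 2 libraries of Esam-hi CD11b+ cells (Esamhi) and 2 of Esam-lo CD11b+ cells (Esamlo), with 1 library of each in experiment batch C and 1 of each in batch D. Libraries were matched by that batch letter, and all genes were compared. The same fractions of Flt3 ITD/+ mice (ITD, 1 Flt3 allele with an internal tandem duplication; Flt3 is the receptor through which Flt3 ligand drives dendritic cell development) gave 2 Esamhi ITD and 2 Esamlo ITD libraries, again 1 in each batch, which are used below as a second pair of groups. Per the series design text each replicate came from an independent experiment. The labels used here give neither the age of the mice nor the number per library.

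CD11b+ conventional dendritic cells take up antigen and present it mainly to CD4 T cells through MHC class II. In mouse spleen their Esam-high fraction is known to depend on Notch2 signalling, in which a ligand on a neighbouring cell frees the intracellular part of the receptor to act with Rbpj on target genes such as Dtx1 and Hes1. The Esam-low fraction is known to carry genes shared with monocytes, among them the chemokine receptor Ccr2 and the inhibitory lectin Clec12a. Esam itself is a junctional adhesion molecule of the immunoglobulin superfamily, and it was the antigen by which the 2 fractions were sorted.

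The Esamhi WT libraries held 17280719 counts in batch C and 16161616 in batch D, and the Esamlo WT libraries held 16382558 and 17242641. The range over the series was 11197145 to 22248404. Mitochondrial genes took 1.31% and 1.49% of counts in Esamhi WT cells, against 1.27% and 1.65% in Esamlo WT cells. Replicate libraries differed by more than counting noise (chi-square per degree of freedom 24.3 for Esamhi WT and 48.4 for Esamlo WT). In a principal component analysis of the 8 CD11b+ libraries the first component held 32.8% of the variance, and on it all 4 Esamhi libraries lay on one side (-59.2 to -20.9) and all 4 Esamlo libraries on the other (22.9 to 66.7). The second, with 16.9%, put the batch C libraries at 18.9 to 37.0 and the batch D libraries at -66.7 to -3.28.

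Levels below are CPM, the raw read count of a gene scaled by the library total to a common depth, and pairs of values are given as batch C and then batch D. Differences are log2 values from an edgeR quasi-likelihood fit with the batch as a block, with their standard error (SE), and a gene is called where its p adjusted over all 18093 genes tested is under 0.05. Nothing in the labels says which animals gave which library, so the p-values measure a spread between libraries. That spread was estimated over all 24 libraries of the series, and need not match that of the Esamlo WT replicates. Each library is bulk RNA of a sorted fraction, in which more cells of a type and more RNA per cell cannot be told apart.

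The marker genes followed the labels. Esam (chromosome 9, 37528078 to 37538319, mm10) stood at 69.2 and 56.4 CPM in Esamhi cells, against 4.03 and 13.7 CPM in Esamlo cells, a log2 difference of 2.84 ± 0.42 (adjusted p = 0.00103). As the sort antigen it checks the labels and is no finding. Esamlo cells of batch D held more Esam reads than those of batch C, so the difference was 4.08 in batch C and 2.00 in batch D. Dtx1 (chromosome 5, 120680202 to 120711927), which encodes the Deltex ubiquitin ligase and is a Notch target, reached 271 and 306 CPM in Esamhi cells, against 39.6 and 99.7 CPM in Esamlo cells. Its difference was 2.10 ± 0.35 (adjusted p = 0.00254), with 2.79 in batch C and 1.60 in batch D.

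Both markers of the Esam-low fraction were lower in Esamhi cells. Clec12a (chromosome 6, 129342691 to 129365303) had 45.8 and 39.0 CPM in Esamhi cells, against 252 and 147 CPM in Esamlo cells (-2.21 ± 0.15, adjusted p = 1.68e-06). For Ccr2 (chromosome 9, 124101950 to 124113557), the receptor that draws monocytes out of bone marrow, the levels were 73.1 and 56.8 CPM in Esamhi cells, against 473 and 253 CPM in Esamlo cells (-2.46 ± 0.28, adjusted p = 0.000126). For each of these 4 genes the Esamhi and Esamlo libraries did not overlap. How often that held over all genes tested was not counted, so it is a description of these values alone. In a fit without the batch block Esam was not called (adjusted p = 0.0698). Dtx1 (adjusted p = 0.0318), Clec12a (2.08e-05) and Ccr2 (0.0207) were called there. All 4 kept their call when any 1 of the 4 WT libraries was left out, and over those fits the difference ran from 2.13 to 4.02 for Esam, from 1.60 to 2.80 for Dtx1, from -2.49 to -1.88 for Clec12a and from -2.81 to -2.02 for Ccr2.

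Genes that define conventional dendritic cells were high in both fractions. Itgax, which encodes CD11c, stood at 846 and 853 CPM in Esamhi cells, against 700 and 634 CPM in Esamlo cells (adjusted p = 0.231). Itgam, which encodes CD11b, had 196 and 160 CPM in Esamhi cells, against 183 and 206 CPM in Esamlo cells, and Sirpa, an inhibitory receptor of CD11b+ dendritic cells, had 1234 and 1099 CPM against 977 and 926 CPM. Neither was called (adjusted p = 0.825 and 0.718). Flt3 itself was at 441 and 431 CPM in Esamhi cells, against 536 and 532 CPM in Esamlo cells (-0.29 ± 0.11, adjusted p = 0.155). Of the 8 genes chosen to mark both fractions only Zbtb46, a transcription factor of conventional dendritic cells, was called: 328 and 276 CPM in Esamhi cells, against 213 and 200 CPM in Esamlo cells (0.54 ± 0.15, adjusted p = 0.0400). That call was lost whichever WT library was left out (adjusted p from 0.0878 to 0.229).

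Over the transcriptome, 475 genes were called higher in Esamhi cells (2.63% of those tested) and 676 were called lower (3.74%), 6.36% in all. The smallest called differences were 0.317 for higher genes and 0.286 in size for lower genes. No upper end is given, since the fitted value of a gene with 0 reads in one fraction is no bound. Of the 1151 calls, 484 exceeded a log2 difference of 1 in size, 186 of them higher and 298 lower. Protein-coding genes made up 1003 of the calls. The median difference of all genes tested was -0.0027, and every one of the 1151 calls had the same sign in batch C and in batch D, as did 60.4% of all genes tested. A fit blocked on batch favours genes that differ the same way in both batches, so this is a description of the calls. The block on batch decided most of these calls: without it 24 genes were higher (0.133%) and 95 lower (0.525%), 0.658% in all, and all 119 were among the 1151. Single libraries also weighed heavily. Without the Esamhi library of batch C 102 genes were called higher and 167 lower, and without that of batch D 142 and 198. Without the Esamlo library of batch C there were 239 higher and 306 lower, and without that of batch D 456 and 510. Among 133 called genes that were chosen for description or stood in a gene list, 46 kept their call in all 4 of these fits, and all kept their direction. Every call already had the same sign in both batches, so the kept direction is a description. The mark used below covers these left-out libraries and not the block, without which 94 of the 133 calls were lost. Lost there but unmarked were Itch, Cx3cr1, Lyz1, Relb, Etv3, Fscn1, Traf1, Birc2, H2-Eb2, Cd24a, Cfp, Scarb1, Tcf7 and others. Below, a call lost in at least 1 of these 4 fits is marked as conditional, with the highest adjusted p it reached there.

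**Figure D1:**
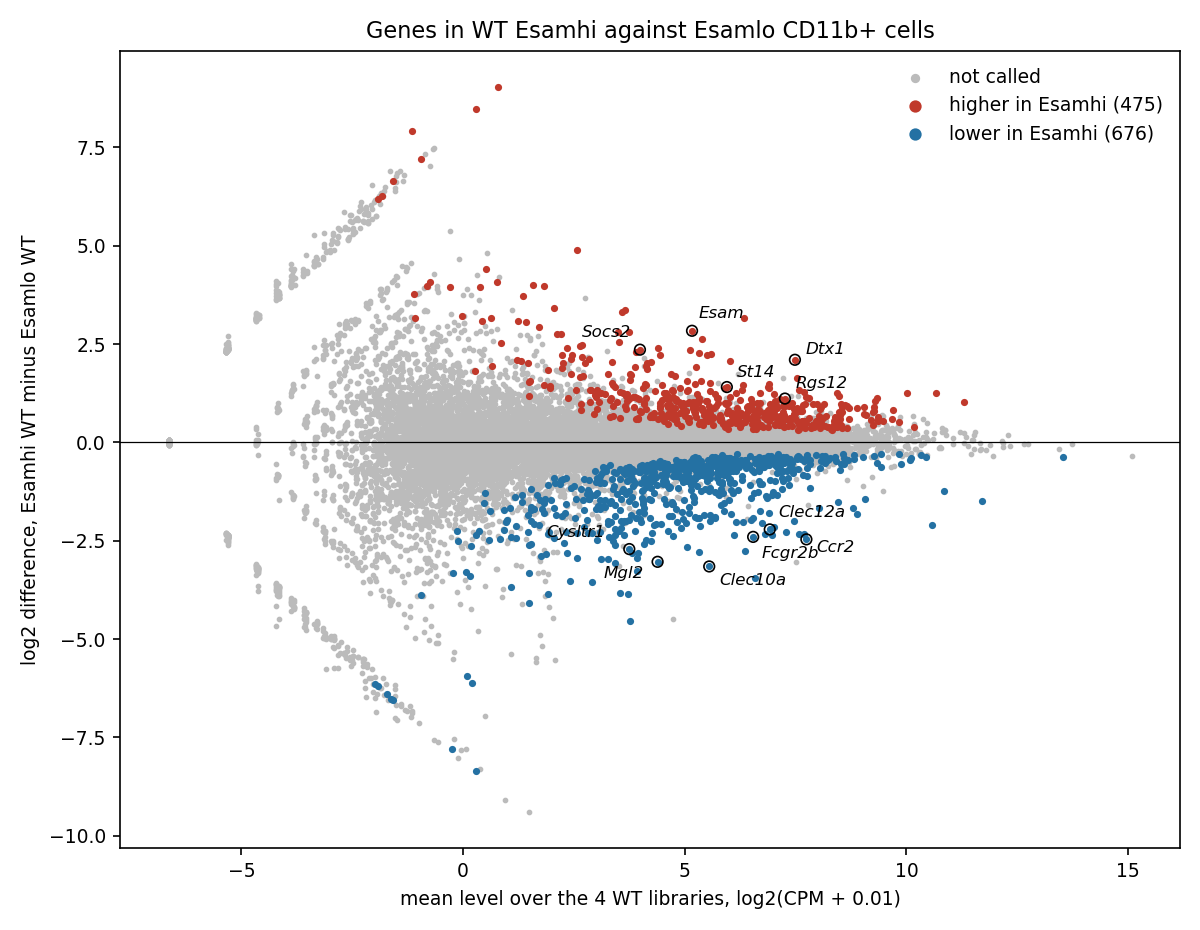
Each point is 1 of the 18093 genes tested, with its mean level over the 4 WT libraries as log2(CPM + 0.01) on the horizontal axis and its log2 difference, Esamhi minus Esamlo, on the vertical axis. Red points are the 475 genes called higher and blue points the 676 called lower, and circles mark 11 genes described in the text.

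**Figure D2:**
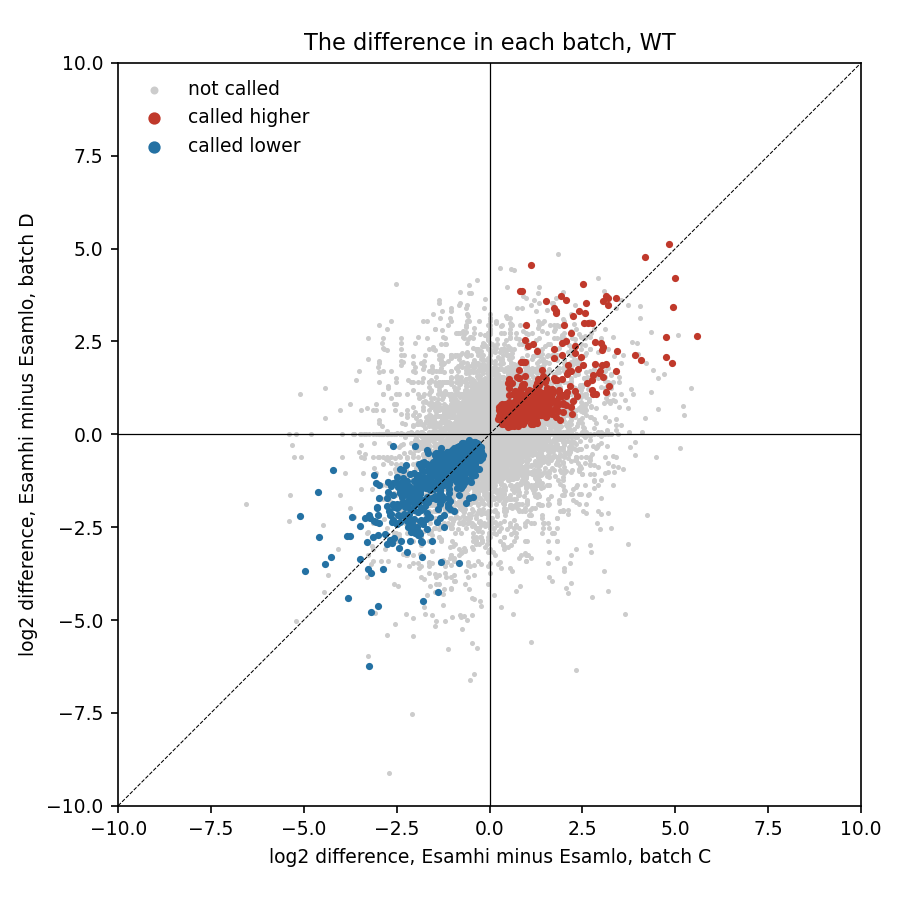
Log2 difference between Esamhi and Esamlo WT cells in batch C (horizontal axis) and in batch D (vertical axis), 1 point per gene, with the line of equal values dashed. All called genes, red for higher and blue for lower, lie at the lower left or the upper right of the crossed axes.

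The genes singled out by size were those called both with and without the block: the 12 of largest difference in each direction that had an established gene symbol and averaged at least 10 CPM in the higher fraction. Gene models without an established symbol, 7 of the genes called in both fits, were set aside. With the 4 markers they made 26 genes, 13 higher and 13 lower in Esamhi cells. In none of the 26 did the Esamhi and Esamlo libraries overlap. Choosing genes by size and by calls in both fits favours such separation, so this is a description of the choice.

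Among the higher genes, Socs2 had the largest difference after Esam. Socs2 encodes a feedback inhibitor of cytokine signalling through JAK and STAT proteins. It stood at 18.5 and 34.8 CPM in Esamhi cells, against 3.72 and 6.50 CPM in Esamlo cells (2.36 ± 0.36, adjusted p = 0.00149). Its lowest Esamhi library was thus above its highest Esamlo library, and the difference was 2.29 in batch C and 2.38 in batch D. Ppp1r14a, an inhibitor of myosin phosphatase, was at 54.6 and 56.7 CPM in Esamhi cells, against 15.1 and 24.6 CPM in Esamlo cells (1.49 ± 0.20, adjusted p = 0.000418). St14, the membrane serine protease matriptase, had 93.1 and 86.1 CPM in Esamhi cells, against 25.8 and 41.9 CPM in Esamlo cells (1.41 ± 0.23, adjusted p = 0.00231). Replicates of Esamhi cells lay close together in both.

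Galnt12, which starts mucin-type O-glycosylation in the Golgi, reached 44.9 and 41.6 CPM in Esamhi cells, against 15.3 and 17.7 CPM in Esamlo cells (1.39 ± 0.14, adjusted p = 7.67e-05). Clstn1, calsyntenin-1, a carrier of membrane cargo along microtubules, had 44.8 and 51.1 CPM in Esamhi cells, against 18.8 and 19.1 CPM in Esamlo cells (1.33 ± 0.17, adjusted p = 0.000281). Rgs12, which speeds the switching-off of G protein signals, was at 240 and 181 CPM in Esamhi cells, against 93.2 and 98.7 CPM in Esamlo cells (1.11 ± 0.14, adjusted p = 0.000228). The cytoskeletal septin Sept1 (1.22) and the membrane protein Tmem19 (1.14) completed the higher genes that kept their call in every fit with a library left out. The other 3 were conditional: Sspo (1.74, highest adjusted p 0.0681), the DNA damage sensor Ddb2 (1.23, 0.0505) and the mitochondrial protease subunit Immp2l (1.10, 0.0920). A share of 23.8% of the exon bases of Ddb2 overlaps another gene, Acp2, and whether counting used the strand is not stated in the labels.

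Of these 26 genes, the lower ones had mostly larger differences. Clec10a and Mgl2, neighbouring genes on chromosome 11 (70156197 to 70170834 and 70130329 to 70137550), encode the galactose-binding lectins of macrophages and dendritic cells. Clec10a had 11.8 and 6.68 CPM in Esamhi cells, against 119 and 50.1 CPM in Esamlo cells (-3.15 ± 0.31, adjusted p = 5.78e-05). Mgl2 had 4.34 and 4.39 CPM in Esamhi cells, against 50.7 and 24.2 CPM in Esamlo cells (-3.04 ± 0.28, adjusted p = 5.76e-05). The 2 genes share sequence (9.02% of the 50-base words of Clec10a and 13.1% of those of Mgl2 occur in another gene, mainly the other of the pair), so part of their reads could have been counted for either.

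Fcgr2b, the inhibitory Fc receptor for IgG, had the smallest adjusted p of the 26. It was at 33.1 and 26.1 CPM in Esamhi cells, against 181 and 133 CPM in Esamlo cells (-2.40 ± 0.15, adjusted p = 9.93e-07). Fcgr3, an activating Fc receptor for IgG, had 12.1 and 8.11 CPM in Esamhi cells, against 76.7 and 61.8 CPM in Esamlo cells (-2.79 ± 0.33, adjusted p = 0.000163), and 9.58% of its words are shared, mainly with Fcgr2b. Of the 12 tested members of the Fc receptor list 2 were lower and 0 higher (16.7%, against 6.36% of all genes tested). The remaining 10 members were not called. Fcgr4 had 13.1 and 10.6 CPM in Esamhi cells, against 33.9 and 27.4 CPM in Esamlo cells (adjusted p = 0.227), and the shared signalling chain Fcer1g had 332 and 337 CPM against 463 and 562 CPM (adjusted p = 0.0901).

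Ccl6, a CC chemokine, was at 49.7 and 33.5 CPM in Esamhi cells, against 230 and 187 CPM in Esamlo cells (-2.35 ± 0.31, adjusted p = 0.000418). Cysltr1, a receptor for cysteinyl leukotrienes, had 4.34 and 2.78 CPM in Esamhi cells, against 26.98 and 19.6 CPM in Esamlo cells (-2.71 ± 0.29, adjusted p = 9.80e-05). Hip1, a clathrin adaptor of endocytosis, had 5.09 and 5.45 CPM in Esamhi cells, against 29.6 and 29.2 CPM in Esamlo cells (-2.49 ± 0.25, adjusted p = 5.78e-05). In Hip1 the replicates of both fractions nearly coincided. Tppp3, a tubulin-binding protein (-2.93), Mcub, an inhibitory subunit of the mitochondrial calcium channel (-2.82), and the lectin Cd209c (-2.48) were also lower in all fits with a library left out. Cd226, an adhesion receptor of lymphocytes and myeloid cells, was lower by 2.94 and conditional (0.0705).

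**Figure D3:**
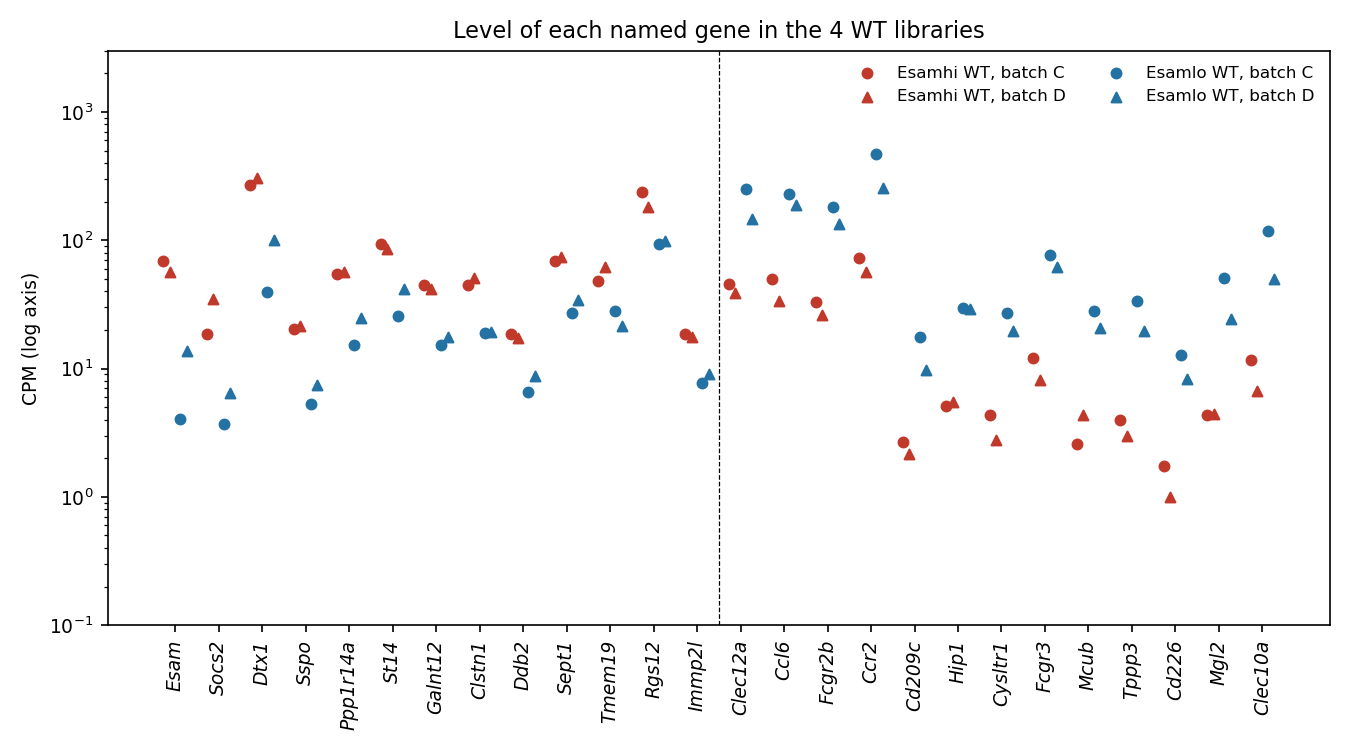
CPM on a log axis of the 26 described genes in the 4 WT libraries, with Esamhi in red and Esamlo in blue, batch C as circles and batch D as triangles. The 13 genes left of the dashed line were higher and the 13 right of it lower in Esamhi cells. In each gene both red points lie on one side of both blue points, which the choice of genes favours.

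Notch genes called beside Dtx1 were Jag1, Notch1 and Itch. In the list of receptors and ligands, 1 of 8 tested members was higher and 1 lower (25.0%, against 6.36% of all genes tested). Notch2 (chromosome 3, 98013527 to 98150361) was at 224 and 246 CPM in Esamhi cells, against 262 and 292 CPM in Esamlo cells (-0.24 ± 0.20, adjusted p = 0.550). Notch1 was lower, at 6.19 and 1.92 CPM in Esamhi cells, against 14.8 and 11.1 CPM in Esamlo cells (-1.69 ± 0.35, adjusted p = 0.00889, conditional up to 0.104), and 9.76% of its exon bases overlap another gene. The ligand gene Jag1 was higher, at 35.1 and 37.2 CPM in Esamhi cells, against 9.77 and 23.7 CPM in Esamlo cells (1.17 ± 0.33, adjusted p = 0.0493, conditional up to 0.327). Neither was called without the block (adjusted p = 0.356 for Notch1 and 0.472 for Jag1).

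Among 20 genes of Notch processing and nuclear action, the proteases, glycosyltransferases and cofactors of the pathway, only Itch was called. That share of 5.0% was near the 6.36% of all genes tested. Itch, a ubiquitin ligase that marks Notch for degradation, had 286 and 257 CPM in Esamhi cells, against 184 and 171 CPM in Esamlo cells (0.61 ± 0.09, adjusted p = 0.00116). Rbpj, the DNA-binding partner of Notch, stood at 113 and 110 CPM in Esamhi cells, against 122 and 124 CPM in Esamlo cells (adjusted p = 0.551). Of 7 tested target genes, Dtx1 was the one called (14.3%). Hes1 had 122 and 52.7 CPM in Esamhi cells, against 120 and 48.9 CPM in Esamlo cells, a difference of 0.06 ± 0.18 (adjusted p = 0.899). Its libraries paired by batch and not by fraction. Nrarp, a feedback inhibitor of Notch, had 1.39 and 1.98 CPM in Esamhi cells, against 5.13 and 4.47 CPM in Esamlo cells (-1.58 ± 0.77, adjusted p = 0.265).

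Of 30 genes shared with monocytes and macrophages, all of them tested, 8 were lower in Esamhi cells, 0 were higher and 22 were not called. The share called was 26.7%, against 6.36% of all genes tested. The median difference was -1.38, against -0.0027 over all genes tested. Beside Clec12a, Ccr2 and Fcgr3, the lower members included Cx3cr1, Lyz1, Lyz2 and Cd68. Cx3cr1, the fractalkine receptor, had 22.1 and 19.5 CPM in Esamhi cells, against 187 and 98.5 CPM in Esamlo cells (-2.75 ± 0.31, adjusted p = 0.000137). Lyz2, lysozyme, had 573 CPM in both Esamhi libraries, against 2953 and 2030 CPM in Esamlo cells (-2.10 ± 0.38, adjusted p = 0.00402, conditional up to 0.0746), and Lyz1 differed by -1.99 ± 0.26. Lyz1 and Lyz2 share 16.1% and 15.4% of their words, mainly with each other. The lysosomal protein Cd68 was lower by 0.41 and conditional (0.190).

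Several defining monocyte genes were not called. Csf1r, the receptor for the macrophage growth factor, had 377 and 277 CPM in Esamhi cells, against 841 and 567 CPM in Esamlo cells (-1.10 ± 0.41, adjusted p = 0.129). Cd14, a co-receptor for endotoxin, had 53.4 and 78.0 CPM in Esamhi cells, against 143 and 201 CPM in Esamlo cells (-1.39 ± 0.42, adjusted p = 0.0612). Ly6c2, the surface marker of inflammatory monocytes, was at 8.91 and 2.17 CPM in Esamhi cells, against 13.7 and 11.7 CPM in Esamlo cells (adjusted p = 0.302). Without the block 4 of the 30 genes were lower. Summed over the list, the level was 4476 and 4039 CPM in Esamhi cells, against 8591 and 6701 CPM in Esamlo cells, and no listed gene was at 0 reads in either fraction. What part monocytes within the gates have in these values was not tested.

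C-type lectin receptors, which bind sugars of pathogens and dying cells, had the largest share of lower calls among the function lists. Of 28 listed genes 27 were tested, 11 were lower, 0 were higher, and the median was -1.20. The share called was 40.7%, against 6.36% of all genes tested. Without the block 8 were lower. The members were Clec10a, Mgl2, Clec12a, the DC-SIGN relatives Cd209a, Cd209c, Cd209d and Cd209e, and Clec4a3, Clec4b1, Clec4b2 and Clec9a. Cd209a had 341 and 232 CPM in Esamhi cells, against 945 and 610 CPM in Esamlo cells (-1.43 ± 0.22, adjusted p = 0.00143). Clec4b1 had 12.9 and 12.4 CPM in Esamhi cells, against 58.4 and 41.0 CPM in Esamlo cells (-1.95 ± 0.28, adjusted p = 0.00122), with 8.68% of its words shared, mainly with Clec4a2. Cd209d, Cd209e, Clec4a3 and Clec4b2 were conditional, up to 0.321 for Clec4b2. Clec4a4, which encodes the DCIR2 antigen of splenic CD11b+ dendritic cells, ran the other way with 143 and 130 CPM in Esamhi cells, against 44.4 and 100 CPM in Esamlo cells, but was not called (0.92 ± 0.35, adjusted p = 0.146).

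Chemokine receptors moved in both directions. Of 24 listed genes 21 were tested, 2 were higher and 5 lower (33.3%, against 6.36% of all genes tested). For the chemokine ligands, given below, the share called was 11.1%. Ccr7, which guides mature dendritic cells to T cell zones, was higher at 824 and 2088 CPM in Esamhi cells, against 352 and 842 CPM in Esamlo cells (1.27 ± 0.16, adjusted p = 0.000318). Esamhi cells of batch C lay below Esamlo cells of batch D, so the fractions overlapped across batches. Within batches the difference was 1.25 in C and 1.29 in D, and without the block Ccr7 was not called (adjusted p = 0.766). Ccr6, a receptor for Ccl20, was higher at 59.8 and 62.3 CPM in Esamhi cells, against 14.3 and 28.8 CPM in Esamlo cells (1.55 ± 0.44, adjusted p = 0.0464, conditional up to 0.268). The lower members were Ccr2, Cx3cr1, Cxcr3, Cxcr4 and S1pr4, of which the last 3 were conditional (up to 0.329). Among 18 tested chemokine ligands 0 were higher and 2 lower: Ccl6 and its chromosome 11 relative Ccl9, which had 45.4 and 46.8 CPM in Esamhi cells, against 280 and 143 CPM in Esamlo cells (-2.15 ± 0.36, adjusted p = 0.00254, conditional up to 0.0655).

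Cytokine genes were called in both directions. Of 30 cytokines and TNF family ligands, 2 were higher and 4 lower, all 6 of them conditional. The share called was above the 6.36% of all genes tested. Ltb, which encodes lymphotoxin beta, had 491 and 459 CPM in Esamhi cells, against 310 and 247 CPM in Esamlo cells (0.78 ± 0.14, adjusted p = 0.00460, up to 0.0588). Il12b, a subunit of interleukin-12 and interleukin-23, had 44.6 and 102 CPM in Esamhi cells, against 20.9 and 45.0 CPM in Esamlo cells (1.14 ± 0.25, adjusted p = 0.0127, up to 0.0908), and its fractions overlapped across batches. The lower genes were Tnfsf9, Tnfsf13b, Tnfsf12 and Osm. Tnfsf12 shares 46.8% of its words and 48.3% of its exon bases with Tnfsfm13, and 14.9% of the exon bases of Tnfsf9 overlap another gene, so both counts are uncertain. Tnfsf9, the ligand of the co-stimulatory receptor 4-1BB, was at 46.0 and 48.3 CPM in Esamhi cells, against 190 and 129 CPM in Esamlo cells (-1.75 ± 0.38, adjusted p = 0.0122, up to 0.135).

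Of 34 growth factor and cytokine receptors, 1 was higher and 3 lower (11.8%, against 6.36% of all genes tested). Il21r, the interleukin-21 receptor, had 245 and 350 CPM in Esamhi cells, against 77.0 and 224 CPM in Esamlo cells (1.125 ± 0.193, adjusted p = 0.00288, conditional up to 0.0530). Csf2ra, the specific chain of the GM-CSF receptor, was lower by 0.48, Il13ra1 by 0.90 and Il6ra by 0.47, each conditional (up to 0.313). Of 22 STAT pathway genes, 4 were higher and 1 lower (22.7%, against 6.36% of all genes tested). Beside Socs2, the kinase gene Jak2 was higher at 506 and 497 CPM in Esamhi cells, against 283 and 376 CPM in Esamlo cells (0.61 ± 0.13, adjusted p = 0.00927, conditional up to 0.112), as were Stat2 and Pim3, both conditional (up to 0.310). Socs3, the other feedback inhibitor called, was lower at 30.5 and 37.4 CPM in Esamhi cells, against 92.5 and 93.9 CPM in Esamlo cells (-1.47 ± 0.25, adjusted p = 0.00253). Socs2 and Socs3 thus differed in opposite directions, and each kept its call in the 4 fits with a WT library left out. Socs3 was not called without the block (adjusted p = 0.730).

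Of 51 transcription factors of dendritic cell development, 5 were higher and 4 lower, 17.6% in all, against 6.36% of all genes tested. Relb, an NF-kappaB subunit of the pathway downstream of the lymphotoxin beta receptor, had 359 and 384 CPM in Esamhi cells, against 183 and 194 CPM in Esamlo cells (0.98 ± 0.10, adjusted p = 6.73e-05). Etv3, an ETS family repressor, had 603 and 952 CPM in Esamhi cells, against 331 and 571 CPM in Esamlo cells (0.80 ± 0.13, adjusted p = 0.00254). Egr3, Tbx21 and Zbtb46 were the other higher ones, all conditional (up to 0.229). Irf8, the factor that directs the CD8+ dendritic cell lineage, was lower at 215 and 195 CPM in Esamhi cells, against 970 and 400 CPM in Esamlo cells (-1.68 ± 0.37, adjusted p = 0.0124, conditional up to 0.158). Id1, Id3 and Cebpb were lower too, and conditional (up to 0.196), and 20.7% of the exon bases of Cebpb overlap Tmem189. Irf4, the counterpart of Irf8 in CD11b+ dendritic cells, had 213 and 304 CPM in Esamhi cells, against 85.8 and 145 CPM in Esamlo cells, which did not pass (1.18 ± 0.37, adjusted p = 0.0683).

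Maturation genes, which dendritic cells turn up as they become migratory and activate T cells, had the largest share of higher calls of any list. Of 28 genes, 10 were higher and 1 lower (39.3%, against 6.36% of all genes tested). A positive difference was seen in 22 of them, and the median of the list was 0.47. The higher genes were Relb, Ccr7, Fscn1, Socs2, Traf1, Birc2, Il4i1, Cacnb3, Tnfrsf4 and Nudt17, and the first 6 of these kept their call whichever WT library was left out. The count of Il4i1 is uncertain, since 86.3% of its exon bases overlap Tbc1d17. Fscn1, which bundles the actin of dendrites, had 154 and 199 CPM in Esamhi cells, against 57.9 and 65.9 CPM in Esamlo cells (1.495 ± 0.202, adjusted p = 0.000469). Traf1, an adaptor of TNF receptors, had 662 and 932 CPM in Esamhi cells, against 406 and 621 CPM in Esamlo cells (0.64 ± 0.11, adjusted p = 0.00233). Birc2, an inhibitor of apoptosis, had 133 and 170 CPM in Esamhi cells, against 83.6 and 89.1 CPM in Esamlo cells (0.80 ± 0.14, adjusted p = 0.00260). Btla, an inhibitory receptor, was the lower one (-0.61, conditional up to 0.216).

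Co-stimulatory ligands on the same list were not called. Cd86 had 301 and 471 CPM in Esamhi cells, against 211 and 434 CPM in Esamlo cells (adjusted p = 0.592), Cd83 had 2785 and 3708 CPM against 2152 and 3275 CPM (adjusted p = 0.510), and Cd40 had 92.6 and 85.2 CPM against 76.1 and 62.4 CPM (adjusted p = 0.111). Several of these genes were higher in batch D than in batch C in both fractions. Summed, the list stood at 7603 and 10982 CPM in Esamhi cells, against 5343 and 7989 CPM in Esamlo cells, so the batch C Esamhi library lay below the batch D Esamlo library. Without the block only Socs2 of the 28 was called. For genes of early response and handling stress the share called was 5.0%, near the 6.36% of all genes tested. Among 20 genes of early response and handling stress, Rgs1 alone was called (1.04, higher, conditional up to 0.158).

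MHC class II genes gave calls in both directions. The 14 tested members gave 3 higher and 1 lower call (28.6%, against 6.36% of all genes tested). For class I presentation genes, given below, the share called was 11.8%. H2-Eb2, a class II beta chain gene, had 101 and 131 CPM in Esamhi cells, against 25.8 and 62.3 CPM in Esamlo cells (1.46 ± 0.24, adjusted p = 0.00233). H2-Ob, a subunit of the H2-O chaperone that restrains peptide loading, had 803 and 753 CPM in Esamhi cells, against 527 and 531 CPM in Esamlo cells (0.55 ± 0.14, adjusted p = 0.0246, conditional up to 0.151). H2-DMb2, a subunit of the peptide loader H2-DM, was higher by 0.52 (conditional up to 0.0796), with 24.8% of its words shared, mainly with H2-DMb1. Ctss, the protease that trims the invariant chain, was lower at 908 and 932 CPM in Esamhi cells, against 1224 and 1280 CPM in Esamlo cells (-0.45 ± 0.10, adjusted p = 0.0117, conditional up to 0.143). The abundant class II chain H2-Aa differed by -0.16 ± 0.09 (adjusted p = 0.354) and the invariant chain Cd74 by -0.33 ± 0.11 (adjusted p = 0.0879). Of 17 class I presentation genes, 0 were higher and 2 lower, the chaperones Calr (-0.35) and Pdia3 (-0.32), both conditional (up to 0.246).

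Genes of type 1 conventional dendritic cells (cDC1), the CD8+ lineage that presents antigen of dead cells to CD8 T cells, gave calls in 1 direction. Of 20 genes, 8 were lower in Esamhi cells, 0 were higher, 12 were not called and the median was -1.39. The share called was 40.0%, against 6.36% of all genes tested. Without the block 3 were lower. Clec9a, their receptor for exposed actin, had 14.9 and 15.3 CPM in Esamhi cells, against 61.3 and 44.4 CPM in Esamlo cells (-1.80 ± 0.27, adjusted p = 0.00138). Cd8a had 6.71 and 4.02 CPM in Esamhi cells, against 17.3 and 14.7 CPM in Esamlo cells (-1.58 ± 0.19, adjusted p = 0.000210). Cd24a had 50.6 and 47.3 CPM in Esamhi cells, against 157 and 105 CPM in Esamlo cells (-1.42 ± 0.19, adjusted p = 0.000539). These 3 kept their call in each fit with a WT library left out, while Irf8, Cadm1, Cd36, Naaa and Gpr141b were conditional (up to 0.251).

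Xcr1, the chemokine receptor that defines cDC1, had 34.4 and 32.1 CPM in Esamhi cells, against 108 and 70.1 CPM in Esamlo cells (-1.38 ± 0.57, adjusted p = 0.181). Summed over the cDC1 list, the level was 2347 and 2409 CPM in Esamhi cells, against 5081 and 3123 CPM in Esamlo cells. In the sorted canonical CD8+ libraries of WT mice it was 17367 to 24003 CPM, and no listed gene was at 0 reads in either CD11b+ fraction. What part cDC1 within the gates have in these differences was not tested. Of 20 genes of plasmacytoid dendritic cells, 1 was higher and 2 lower, all conditional: Cd7 (0.86), Bst2 (-0.63) and Cd300c (-1.47). The sum of that list was 641 and 625 CPM in Esamhi cells, against 592 and 603 CPM in Esamlo cells.

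Genes of prostanoids and leukotrienes, lipid signals of inflammation, gave 6 lower and 0 higher calls among 27 tested members, although the median difference was -0.07. They were Cysltr1, Ltb4r1, Ptgir, Alox5, Tbxas1 and Hpgd. Ptgir, the prostacyclin receptor, had 0.174 and 0.804 CPM in Esamhi cells, against 9.95 and 4.06 CPM in Esamlo cells (-3.85 ± 0.73, adjusted p = 0.00642, conditional up to 0.112). Ltb4r1, the receptor of leukotriene B4, had 9.26 and 6.93 CPM in Esamhi cells, against 63.8 and 26.1 CPM in Esamlo cells (-2.37 ± 0.42, adjusted p = 0.00467, conditional up to 0.0891). Alox5, which makes leukotrienes, had 5.32 and 2.54 CPM in Esamhi cells, against 20.6 and 16.2 CPM in Esamlo cells (-2.26 ± 0.51, adjusted p = 0.0172, conditional up to 0.170). Cysltr1 was the member that kept its call in all 4 fits with a WT library left out. Ptgs2, the inducible cyclooxygenase, had 1557 and 1633 CPM in Esamhi cells, against 992 and 1127 CPM in Esamlo cells (adjusted p = 0.575).

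Lysosomal and complement lists had shares of calls above the 6.36% of all genes tested. Of 17 cathepsins and cystatins, 0 were higher and 4 lower (23.5%). Ctse, an aspartic protease, had 9.32 and 8.42 CPM in Esamhi cells, against 27.5 and 20.2 CPM in Esamlo cells (-1.42 ± 0.17, adjusted p = 0.000183). Cst3, the protease inhibitor cystatin C, had 1058 and 1128 CPM in Esamhi cells, against 3099 and 2117 CPM in Esamlo cells (-1.23 ± 0.24, adjusted p = 0.00703, conditional up to 0.121). Ctsb (-0.52) and Ctss were also lower and conditional. Of 15 complement genes 1 was higher and 2 were lower. Cfp, properdin, which stabilises the alternative pathway convertase, had 348 and 318 CPM in Esamhi cells, against 183 and 157 CPM in Esamlo cells (0.97 ± 0.16, adjusted p = 0.00233). C3, the central component of the cascade, was lower by 2.19 (conditional up to 0.0544).

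Among 23 tested SIRP, Siglec and paired receptors, 4 were higher and 2 lower (26.1%, against 6.36% of all genes tested). Siglecg, an inhibitory sialic acid receptor, had 361 and 337 CPM in Esamhi cells, against 152 and 220 CPM in Esamlo cells (0.91 ± 0.19, adjusted p = 0.0112, conditional up to 0.132). Cd22, Cd300lf and Pira2 were higher as well and conditional, and 93.0% of the words of Pira2 are shared with related genes, which makes its count uncertain. Lilra5 had 2.89 and 0.681 CPM in Esamhi cells, against 27.8 and 21.2 CPM in Esamlo cells (-3.85 ± 0.85, adjusted p = 0.0145, conditional up to 0.154). Mpeg1, the pore-forming protein perforin-2, had 212 and 204 CPM in Esamhi cells, against 1001 and 481 CPM in Esamlo cells (-1.81 ± 0.31, adjusted p = 0.00292, conditional up to 0.0570). Of 32 tested integrins and adhesion genes, 1 was higher, Esam itself, and 4 were lower (15.6% in all). Among the lower ones were Cd226, Itga5 (-1.57) and Itgal (-0.67), these 3 conditional. In the phagocyte oxidase list, 2 of 8 were higher (25.0%). They were Ncf1 (0.59) and the proton channel Hvcn1 (1.01), both conditional, and 44.2% of the exon bases of Hvcn1 overlap another gene.

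Lipoprotein and glycolysis lists held lower calls alone, and the cell division list held none. Of 26 lipoprotein and sterol genes, 0 were higher and 4 lower (15.4%, against 6.36% of all genes tested). Scarb1, the scavenger receptor for high-density lipoprotein, had 116.8 and 81.7 CPM in Esamhi cells, against 256 and 141 CPM in Esamlo cells (-0.98 ± 0.15, adjusted p = 0.00156), while Lrp1 and Cd36 were among the conditional ones (up to 0.146). Of 24 glycolysis genes, 0 were higher and 3 lower (12.5%). Aldoc differed by -1.69 ± 0.23 and kept its call throughout, while Aldoa and Hk3 were conditional. None of 30 cell division genes was called, although 29 had a positive difference (median 0.44). In that list the median was 0.09 in batch C and 0.76 in batch D. Of 14 tested BCL2 family genes 1 was lower, Bcl2 (-0.87 ± 0.17, conditional up to 0.117). Interferon-stimulated genes gave 1 higher and 3 lower calls among 26 (15.4%). Toll-like receptors and adaptors gave 1 lower among 21, Tlr8 (-2.25). All of these calls were conditional. The shares of 4.76% for Toll-like receptors and adaptors and 7.14% for the BCL2 family were near the 6.36% of all genes tested.

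**Figure D4:**
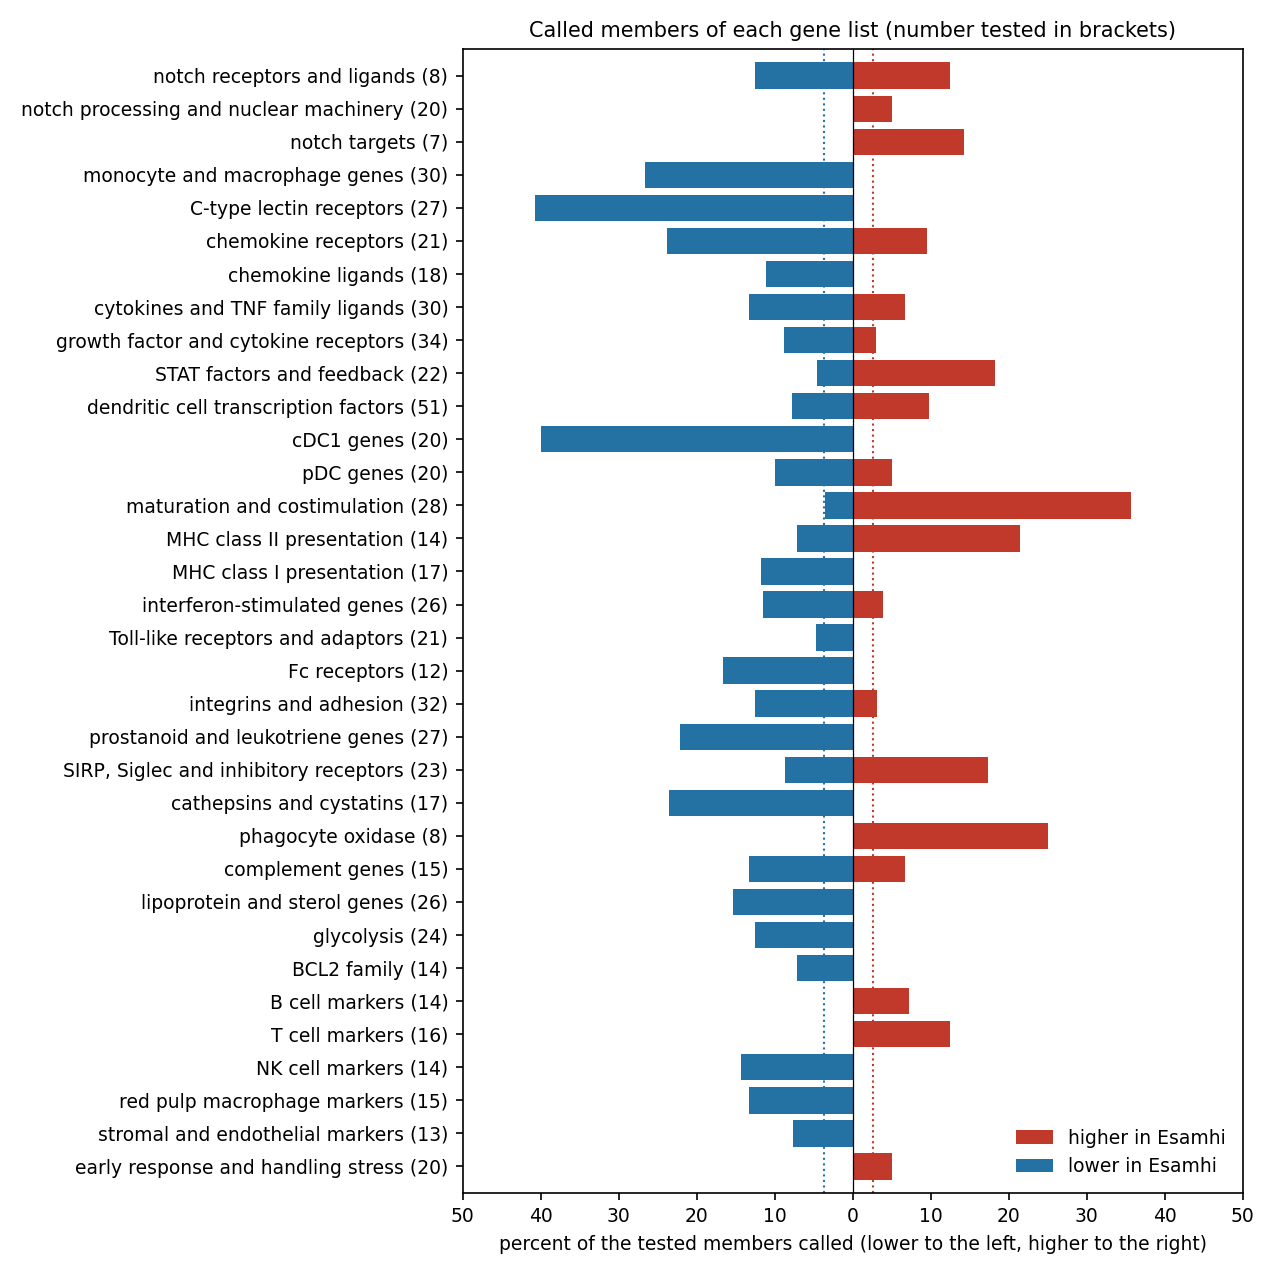
Percent of the tested members of each gene list that were called higher (red, to the right) or lower (blue, to the left) in Esamhi cells, with the number tested in brackets, for the lists with at least 1 call (lists with 0 calls are left out). Dotted lines mark the shares over all genes tested, 2.63% and 3.74%, and the longest bars are those of C-type lectin receptors and cDC1 genes on the left and of maturation and costimulation on the right.

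Shares called in the marker lists of lymphocytes and other cells rested on 1 or 2 genes each and are a description. They were 12.5% (2 of 16) for T cell, 14.3% (2 of 14) for NK cell, 13.3% (2 of 15) for red pulp macrophage and 7.14% (1 of 14) for B cell markers. Over all genes tested the share was 6.36%. T cell markers summed to 118 and 143 CPM in Esamhi cells, against 60.5 and 59.2 CPM in Esamlo cells. Of 16 genes 2 were higher. Tcf7, a transcription factor of T cell and innate lymphocyte development, had 58.9 and 101 CPM in Esamhi cells, against 10.8 and 23.5 CPM in Esamlo cells (2.25 ± 0.31, adjusted p = 0.000579). Cd5, an inhibitory receptor, had 30.7 and 36.9 CPM in Esamhi cells, against 11.8 and 18.4 CPM in Esamlo cells (1.18 ± 0.22, adjusted p = 0.00516, conditional up to 0.0649). The T cell receptor subunit Cd3e, in contrast, had 1.85 and 1.05 CPM in Esamhi cells, against 4.03 and 2.90 CPM in Esamlo cells (adjusted p = 0.505), and 12 of the 16 list members had a negative difference.

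NK cell markers summed to 187 and 156 CPM in Esamhi cells, against 385 and 314 CPM in Esamlo cells, and all 14 had a negative difference, 2 of them called. Klrk1, the receptor NKG2D, had 35.9 and 38.4 CPM in Esamhi cells, against 171 and 116.98 CPM in Esamlo cells (-1.97 ± 0.22, adjusted p = 9.80e-05). Klrb1c was lower by 2.30 (conditional up to 0.263), with 17.0% of its words shared with another gene model. The defining NK receptor Ncr1 had 8.22 and 0.309 CPM in Esamhi cells, against 12.6 and 4.41 CPM in Esamlo cells (adjusted p = 0.387). B cell markers summed to 1435 and 577 CPM in Esamhi cells, against 1577 and 878 CPM in Esamlo cells, with 1 of 14 called, Cd22 (0.84, higher, conditional up to 0.229). Cd79a, a signalling chain of the B cell receptor, had 12.4 and 0.619 CPM in Esamhi cells, against 21.4 and 6.50 CPM in Esamlo cells (adjusted p = 0.366). Red pulp macrophage markers summed to 742 and 453 CPM in Esamhi cells, against 776 and 471 CPM in Esamlo cells, with 2 of 15 lower, Cd163 (-2.03) and Trf (-0.75), both conditional, and 59.4% of the words of Trf are shared.

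Erythroid and platelet markers summed to 142 and 22.3 CPM in Esamhi cells, against 152 and 39.5 CPM in Esamlo cells. B cell, red pulp and erythroid sums were thus each larger in batch C than in batch D in both fractions. Neutrophil markers summed to 170 and 122 CPM in Esamhi cells, against 96.6 and 103 CPM in Esamlo cells, with Ly6g, Elane and Ngp at 0 reads in Esamhi cells and Camp, Lcn2 and Mpo at 0 reads in Esamlo cells. Basophil and mast cell markers summed to 732 and 801 CPM in Esamhi cells, against 351 and 586 CPM in Esamlo cells. Nearly all of that sum was Kit (711 and 780 CPM against 341 and 572 CPM, adjusted p = 0.0582), while Mcpt8, Prss34 and Ms4a2 were at 0 reads in both fractions. None of the neutrophil, plasma cell, erythroid or basophil markers was called, and of 13 tested stromal and endothelial markers Kdr was lower (-1.33, conditional up to 0.481). That stromal and endothelial share of 7.69% was near the 6.36% of all genes tested. The part of any of these other cells in the differences between fractions was not tested.

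The other WT subsets, non-canonical CD8+ (NC_CD8), canonical CD8+ (C_CD8) and PDC (plasmacytoid dendritic cells), were used to place the called genes by the subset with their highest level. Of the 475 genes higher in Esamhi than in Esamlo cells, 282 (59.4%) had their highest mean level of the 5 WT subsets in Esamhi cells, as had 17.0% of all genes tested. Of the 676 lower genes, 162 (23.96%) peaked in Esamlo cells, 274 (40.5%) in C_CD8, 177 (26.2%) in PDC and 63 (9.32%) in NC_CD8 cells. The corresponding shares of all genes tested were 11.3%, 22.3%, 34.0% and 15.5%. A peak in Esamhi cells is more likely by construction for genes chosen as higher there, so these shares are a description.

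Dtx1 was highest in Esamhi cells, then in Esamlo cells, where it stood at 39.6 and 99.7 CPM, a range that contained the 46.8 to 61.4 CPM of NC_CD8 cells. It was at 2.54 to 5.31 CPM in C_CD8 and 0.531 and 0.989 CPM in PDC. Tcf7, at 58.9 and 101 CPM in Esamhi cells, overlapped the 74.5 to 109 CPM of NC_CD8 cells. Socs2 in Esamhi cells, at 18.5 and 34.8 CPM, overlapped the 15.6 to 26.6 CPM of C_CD8 cells and lay above the other subsets. Clec12a was lowest in Esamhi cells among all 5 subsets: every other WT library held 147 CPM or more, and PDC held 544 and 562 CPM. Ccr2 was low in Esamhi and in C_CD8 cells (29.3 to 56.8 CPM in C_CD8) and high in Esamlo, NC_CD8 (308 to 477 CPM) and PDC cells (454 and 695 CPM). Fcgr2b was highest in Esamlo cells, where both libraries lay above all libraries of NC_CD8 cells (55.5 to 76.0 CPM).

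**Figure D5:**
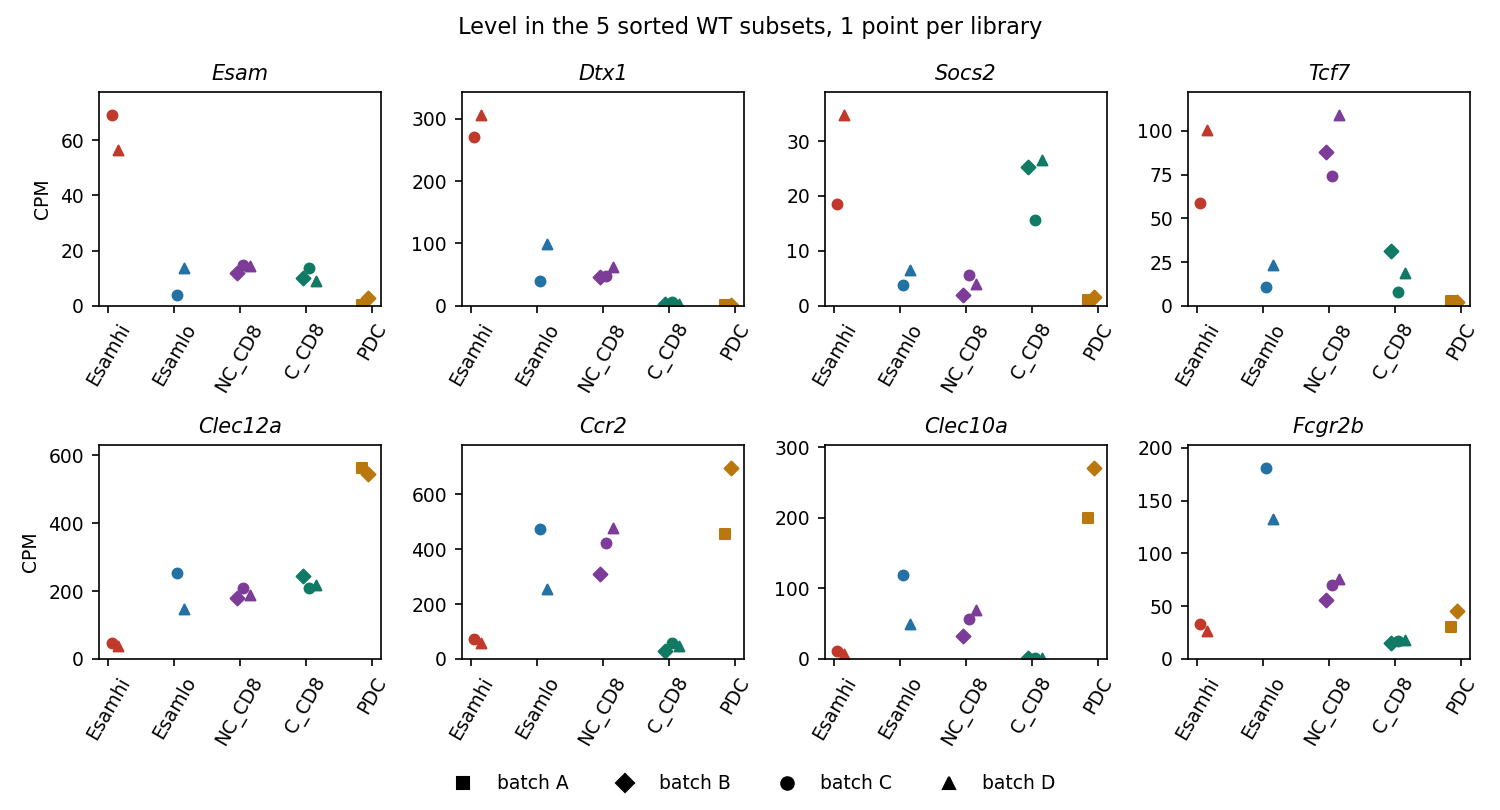
CPM of 8 genes in the 12 WT libraries, 1 point per library, with the subsets along the horizontal axis and the batch shown by the shape of the point. Esam and Dtx1 are highest in Esamhi cells, Tcf7 overlaps between Esamhi and NC_CD8 cells, Clec12a is lowest in Esamhi cells, and Fcgr2b is highest in Esamlo cells.

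The same comparison in Flt3 ITD/+ mice used no library of the WT comparison but shared its batches and its estimate of the spread. In ITD cells 255 genes were higher in Esamhi than in Esamlo cells (1.41% of those tested) and 441 lower (2.44%), 3.85% in all. Without the block 15 were higher (0.0829%) and 65 lower (0.359%), 0.442% in all. The ITD counts also rested on single libraries: without the Esamhi ITD library of batch C 66 genes were higher and 127 lower, and without that of batch D 79 and 154. Without the Esamlo ITD library of batch C there were 63 higher and 185 lower, and without that of batch D 29 and 103. The overlap with the WT calls was counted with all libraries and carries the same limit. Of the 1151 WT calls 486 were called in ITD cells too, all in the same direction, which is 42.2% of the WT calls and 69.8% of the ITD calls. The same sign was seen in ITD cells for 1124 of the WT calls (97.7%) and for 69.1% of all genes tested. The median difference of the genes higher in WT cells was 0.87 in WT and 0.61 in ITD cells, and that of the lower genes was -0.88 in WT and -0.63 in ITD cells. The genes were chosen on their WT values, so the WT medians are not comparable with the ITD medians as effect sizes.

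All 26 described genes had the same sign in ITD cells, in both batches, and 24 were called there. Dtx1 differed by 2.23 ± 0.36 in ITD cells (adjusted p = 0.00256), Clec12a by -1.95 ± 0.15 (adjusted p = 8.57e-06), Ccr2 by -2.60 ± 0.28 (adjusted p = 0.000119) and Fcgr2b by -2.35 ± 0.15 (adjusted p = 1.42e-06). Immp2l and Cd226 missed the threshold in ITD cells (adjusted p = 0.0627 and 0.0577). Of the 120 called members of the gene lists, all had the same sign in ITD cells and 79 were called there.

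No gene was called by edgeR in the test of the difference itself, the WT contrast minus the ITD contrast, where 749 genes (4.14%) had an unadjusted p under 0.05. DESeq2 called 4 genes, named here after their values were seen. Of these, Trat1, Kcnk1 and Igkv4-79 had 0 reads in Esamhi ITD cells and at most 21 reads in any of the other 3 groups, so no fold is given. The other was Ankrd13a, which encodes a ubiquitin-binding protein. It had 344 and 377 CPM in Esamhi WT cells, against 240 and 209 CPM in Esamlo WT cells, and 314 and 317 CPM in Esamhi ITD cells, against 281 and 298 CPM in Esamlo ITD cells. Its WT contrast exceeded its ITD contrast by 0.59 in DESeq2 (adjusted p = 0.0254) and by 0.58 ± 0.13 in edgeR (adjusted p = 1).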

How the data were processed

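Per the labels' protocols, dendritic cell fractions were obtained by flow cytometry, PicoPure columns gave the RNA (in some samples after Trizol), and low-input Clontech kits (SMART-seq v4) gave cDNA and libraries. The submitters' processing notes name build mm10 and the programs bcl2fastq 1.8.4, Bowtie2 (listed as 0.4) and DESeq2 1.8.2. Which program counted reads, with what annotation and whether by strand, is not given in the sources used here. As deposited by the authors, the table holds raw counts of each Ensembl gene in 24 libraries, and only this table was analysed. Their normalized table was not used. No deposited count column was left without a sample.

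Symbols and positions came from GENCODE annotation of the same build. Genes without a symbol held 0.561% of counts. In R 4.3.3, edgeR 4.0.16 fitted 1 quasi-likelihood model to all 24 libraries, with TMM scaling, filterByExpr (minimum count 10; 18093 of 39017 genes kept), 10 group means and an additive batch term, which left 11 residual degrees of freedom. SE is the absolute log2 difference divided by the square root of F. Differences within a batch are TMM-scaled log2 CPM with a prior count of 2. The block was the main fit because libraries are matched by batch letter in the labels. Same-batch libraries deviated together only weakly (r across genes 0.194 in WT and 0.121 in ITD cells). The biological coefficient of variation was 0.174 with the block and 0.317 without. The fit, the genes described and the gene lists were chosen with earlier results of these data known. Genes were described if they were the 4 markers, or among the 12 of largest difference per direction with an established symbol called both with and without the block at 10 CPM or more, or were the called members (up to 5 of smallest p, others by name) and defining members of a list. A few further list members are named to complete counts, after their values were seen. Some members that enter the list counts are not reported here by name. Shared sequence is the percent of 50-base words of a gene's transcripts found in another gene. Scripts were tested on simulated counts. Alternatives were no block, other sets of libraries, other scaling (RLE), DESeq2 1.42.0, no filter, and leaving out each replicate. Counting sets the floor of precision: reads carry no molecular identifiers. Plots used matplotlib 3.10.9.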

Additional observations from a re-analysis of the deposited data

How the results depend on the processing

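Counts are given as genes higher and genes lower in Esamhi cells. The WT counts of 475 and 676 became 24 and 95 without the replicate block, where the pairing by batch is ignored, and the ITD counts of 255 and 441 became 15 and 65. Of 133 described WT calls 39 held without the block, Esam itself being lost (adjusted p = 0.0698). Fitted on the 4 WT libraries alone, with 1 residual degree of freedom, the WT counts were 291 and 370. DESeq2 called 833 and 858 genes in WT and 506 and 651 in ITD cells, and 4 in the difference between the genotypes' contrasts, where every edgeR setting called 0. The counts of WT calls stayed within 1.5 times under RLE scaling (536 and 593), without the filter (422 and 587), and in the 8 CD11b+ libraries (486 and 507, of which 342 and 390 were among the calls above) or the 16 of batches C and D. Leaving out 1 WT library, which assumes that the lone library varies like the other groups, gave 102 to 456 higher and 167 to 510 lower genes. Leaving out 1 ITD library, an alternative added after seeing the data, gave 29 to 79 higher and 103 to 185 lower ITD genes. Of the 133 described calls, 74 were lost without Esamhi batch C, 73 without Esamhi batch D, 66 without Esamlo batch C and 35 without Esamlo batch D. In none of these settings did a described gene change direction, which is likely for calls of the same sign in both batches. With 2 libraries per fraction, smaller differences than those called may have gone undetected, and the cause of the shifts in counts was not tested.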
